A study of Mus musculus with 23 samples.

Results

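The 40 genes described here encode the machinery of mitosis: CDK1 with its cyclins and activating phosphatases, the mitotic kinases, the spindle checkpoint, the anaphase regulators, the kinetochore, the chromosomal passenger complex, the spindle motors, the cytokinesis proteins and 3 genes of mitotic chromosomes and transcription. They were chosen by name, with earlier results of these data known. The array measured all 40 with 57 probes, out of 20145 named genes with 26582 probes. Their transcripts were measured in TM4 cells, an immortalized mouse Sertoli cell line that grows in culture, unlike adult Sertoli cells, which do not divide. All cells received 1% DMSO for 48 hr, either alone (DMSO group) or with 100 μM of a plasticizer or plasticizer metabolite. The compounds were MEHP (mono-ethylhexyl phthalate, the monoester metabolite of the plasticizer DEHP), DINCH (a diisononyl cyclohexane dicarboxylate), DOM (dioctyl maleate), BDB (a butanediol dibenzoate) and DOS (dioctyl succinate). Each group had 4 arrays except DOS, which had 3 because a replicate with high background had been left out by the submitters. The cells of all groups are 1 line, so the replicates are cultures and not animals.

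Entry into mitosis depends on the kinase CDK1, which is active only when bound to cyclin A or B and after CDC25 phosphatases have removed inhibitory phosphates. Active CDK1, together with the polo-like and Aurora kinases, drives chromosome condensation and spindle assembly. The checkpoint at the kinetochores holds back the anaphase-promoting complex until every chromosome is attached, after which CDC20 turns the complex on and securin and cyclin B are destroyed. Most of these transcripts accumulate in G2 and M phase, under the control of the DREAM and MMB-FOXM1 complexes, which act through an element called CHR, often with CCAAT boxes bound by NF-Y beside it. In an RNA sample from a whole culture, fewer dividing cells and less of a transcript per dividing cell cannot be told apart.

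Because such elements are shared in this gene class, promoters of these genes are shown first. RefSeq annotation on GRCm38.p6 gave 35 promoters of 32 of the genes, each spanning 250 bases before and 50 after the annotated start. Each was searched on both strands for CCAAT and for the CHR letters TTTGAA or TTCGAA (the latter is its own reverse complement and was counted once, and no match was removed for overlapping another). CCAAT occurred in 28 of the 35 (80%), compared with 37.4% of all 32851 promoters of this length. The CHR letters also occurred in 28 of the 35 (80%), compared with 19.2% of all promoters, and both motifs occurred in 25 (71.4%), compared with 7.52%. A match is a run of letters and not a measured binding site. The windows below run from position -120 to 30 relative to the start, 5′ to 3′ on the strand of the gene, for 6 genes that fell with DOM and for Bub3, the gene that changed least. Capitals mark every CCAAT or CHR match on either strand.
Cdk1: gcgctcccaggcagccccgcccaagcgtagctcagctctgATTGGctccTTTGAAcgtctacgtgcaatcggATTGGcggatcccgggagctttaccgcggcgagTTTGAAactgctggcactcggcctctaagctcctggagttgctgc
Ccnb1: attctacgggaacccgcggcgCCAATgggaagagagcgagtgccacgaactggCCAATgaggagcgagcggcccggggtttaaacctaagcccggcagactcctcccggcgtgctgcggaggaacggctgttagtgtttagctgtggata
Ccnb2: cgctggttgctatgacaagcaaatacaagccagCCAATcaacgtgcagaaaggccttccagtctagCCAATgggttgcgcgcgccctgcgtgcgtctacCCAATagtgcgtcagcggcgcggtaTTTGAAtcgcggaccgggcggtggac
Cdc20: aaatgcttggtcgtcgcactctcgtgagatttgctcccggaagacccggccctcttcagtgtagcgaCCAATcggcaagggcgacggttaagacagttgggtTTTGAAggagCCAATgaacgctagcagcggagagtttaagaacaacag
Cenpa: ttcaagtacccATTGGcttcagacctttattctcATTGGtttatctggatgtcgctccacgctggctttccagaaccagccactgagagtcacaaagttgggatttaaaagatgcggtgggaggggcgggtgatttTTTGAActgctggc
Top2a: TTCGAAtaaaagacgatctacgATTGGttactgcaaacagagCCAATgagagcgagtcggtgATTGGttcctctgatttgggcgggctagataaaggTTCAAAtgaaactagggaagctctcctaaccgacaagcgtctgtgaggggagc
Bub3: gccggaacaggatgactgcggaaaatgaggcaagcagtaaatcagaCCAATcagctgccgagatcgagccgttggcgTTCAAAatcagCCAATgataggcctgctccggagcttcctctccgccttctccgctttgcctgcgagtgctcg
The windows are Cdk1 at chr10:69352883-69353032 (minus strand), Ccnb1 at chr13:100786457-100786606 (minus strand), Ccnb2 at chr9:70421525-70421674 (minus strand), Cdc20 at chr4:118437314-118437463 (minus strand), Cenpa at chr5:30666766-30666915 (plus strand), Top2a at chr11:99024160-99024309 (minus strand) and Bub3 at chr7:131560250-131560399 (plus strand). Cdk1 held CHR matches at positions -71 and -15, with a reversed CCAAT at -48 between them. Cdc20 held its CHR match at position -18 and Cenpa at 17. Ccnb1 held CCAAT boxes at positions -99 and -67 and no CHR letters. Bub3 held both kinds of letters. Over the 25 genes with CHR letters the median DOM change was -1.93 on the log2 scale, and over the 7 without them it was also -1.93. Whether these letters had a part in the DOM change was not tested.

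The data are brightness values. A level is the log2 of a probe's processed intensity relative to the 75th percentile of its array, so that a level of 0 equals that percentile and a difference of 1 is a doubling. Levels of different probes were not compared. On each array 43.4% to 52.2% of the spots passed the scanner software's test of being well above background, and the 75th percentile lay between 205 and 351 intensity units, with ranges that overlapped between the groups (258 to 351 for DOM, 234 to 320 for DMSO). Of 12 Sertoli cell markers 6 were well above background on all 4 DMSO arrays, among them Dhh, Gata4 and Inhbb, while Wt1, Fshr and Cldn11 were not on any array. The summed level of the Sertoli markers ranged from 3.78 to 4.78 in DMSO and from 5.41 to 6.09 with DOM, and this rise was that of 1 bright gene, Inhbb (1.61, called higher). Of the other 5 markers detected on all DMSO arrays, Gata4 differed by 0.49, Dhh by -0.39, Kitl by -0.61, Rhox5 by -0.87 and Sox9 by -0.92, of which Sox9 was called lower. The part of such differences in the results was not tested. Of the 5 germ cell markers none was detected in this sense throughout the DMSO group, with summed levels of -3.99 to -3.37 in DMSO and -3.84 to -3.20 with DOM. Of the 5 peritubular myoid markers 3 were above background on all DMSO arrays (sums of 6.86 to 7.22 in DMSO and 6.88 to 7.30 with DOM, Cnn1 called lower), and of the Leydig and macrophage markers Cyp17a1 and Csf1r were.

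The mitotic genes were lower with DOM almost without exception. Of the 40 genes, 39 could be tested against DMSO, 38 were called lower and 0 were called higher (limma, adjusted p below 0.05 and more than 1.5-fold). Among all 12005 genes tested, 10.6% were called lower and 9.9% higher. Over all 40 genes, whether testable or not, the median change was -1.92, compared with -0.03 over all genes tested, and every one of the 40 lay below 0. Counting every probe, 54 of the 55 tested probes were called lower, and on all 55 each DOM array lay below each DMSO array. The remaining probe was that of Bub3. The shares given here are over genes, so these probe counts have no share over all probes to stand beside. On the brightest probes the 4 DOM arrays lay below the 4 DMSO arrays for 40 of 40 genes, whereas this held for 20.4% of the genes tested. They lay below all 19 other arrays, of every other treatment, for 39 of 40, compared with 10.1%. The exception was Aurkb.

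**Figure D1:**
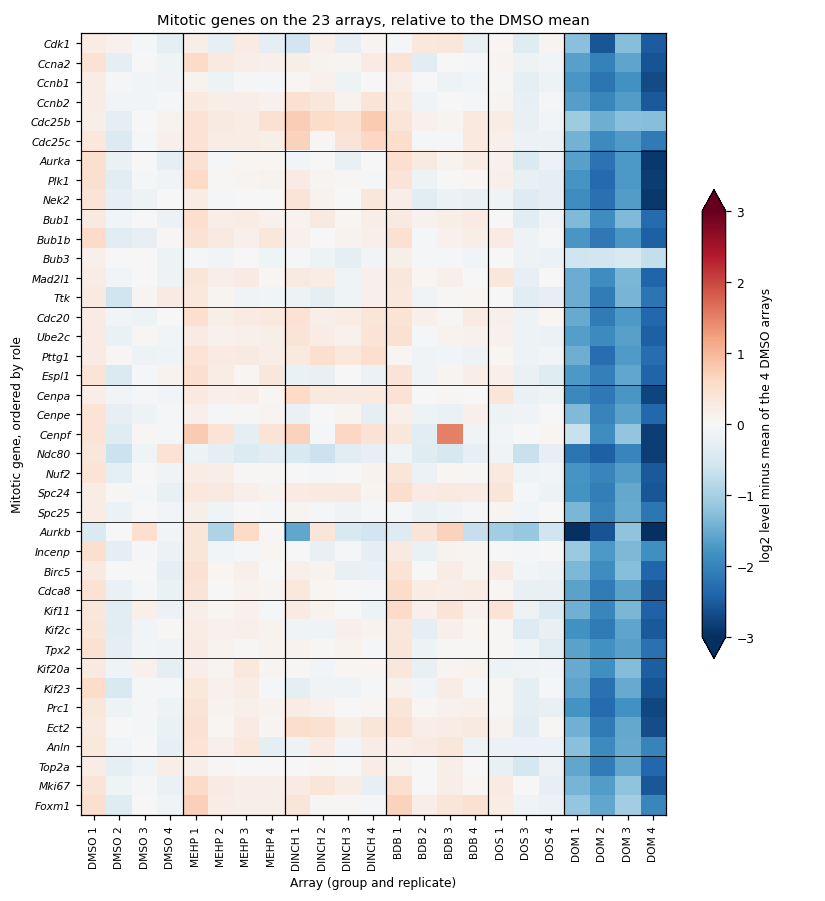
Levels of the 40 mitotic genes (rows, by role, brightest probe) on the 23 arrays (columns) as the log2 difference from the mean of the 4 DMSO arrays, with colours capped at 3 in either direction. The 4 DOM columns are blue in every row, palest for Bub3 (-0.58), while the median change over the 40 genes was between -0.07 and 0.17 with the other compounds.

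The 6 genes of the CDK1 group were all called lower with DOM, with a median change of -1.92. Cdk1, the kinase that starts mitosis, had levels of 3.90, 3.78, 3.62 and 3.37 on the 4 DMSO arrays and of 2.40, 1.11, 2.39 and 1.18 on the 4 DOM arrays. The groups did not overlap, and DOM replicates 2 and 4 were more than 1 log2 unit below replicates 1 and 3. Its level fell by 1.90 on the log2 scale (3.72-fold, SE 0.32, adjusted p = 0.00245), and a second, dimmer probe fell by 2.38 (adjusted p = 0.00369). Ccnb1, the main mitotic cyclin, had levels of 4.84, 4.57, 4.53 and 4.51 with DMSO and of 2.86, 2.41, 2.79 and 1.93 with DOM. The lowest DMSO array was 1.65 log2 units above the highest DOM array, the widest such gap among the 40 genes, and Ccnb1 fell by 2.12 (4.33-fold, SE 0.20, adjusted p = 0.000272). Ccnb2, the second B-type cyclin, fell by 1.95 (3.86-fold, SE 0.19, adjusted p = 0.000287). Ccna2, whose cyclin serves both S phase and early mitosis, fell by 1.96 (3.90-fold, SE 0.24, adjusted p = 0.000652). The phosphatase genes fell less. Cdc25b had levels of 3.39, 2.93, 3.20 and 3.32 with DMSO and of 2.15, 1.75, 1.96 and 1.92 with DOM, a decrease of 1.27 (2.40-fold, SE 0.13, adjusted p = 0.000358). It had the smallest change among the 38 called genes, although after normexp background correction Ttk changed less (-0.91) than Cdc25b (-1.19). Cdc25c fell by 1.79 (SE 0.19, adjusted p = 0.000406).

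The kinases of centrosomes and spindle poles, Plk1, Aurka and Nek2, were all called lower. Plk1, the polo-like kinase that acts at centrosomes and kinetochores, had levels of 5.78, 4.99, 5.25 and 5.19 with DMSO and of 3.54, 2.97, 3.58 and 2.46 with DOM. Every DOM array was at least 1.41 log2 units below every DMSO array, and Plk1 fell by 2.17 (4.49-fold, SE 0.27, adjusted p = 0.000652). Aurka, the centrosomal Aurora kinase, fell by 2.11 (4.32-fold, SE 0.28, adjusted p = 0.00089). Nek2, which separates the centrosomes, fell by 2.17 (4.50-fold, SE 0.26, adjusted p = 0.000571).

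Of the 5 spindle checkpoint genes 4 were called lower and the fifth, Bub3, was not. Bub1b (BubR1, part of the complex that inhibits CDC20) fell by 2.03 (4.07-fold, SE 0.23, adjusted p = 0.000496) and the kinase gene Bub1 by 1.70 (3.26-fold, SE 0.22, adjusted p = 0.000836). Ttk, the kinase also called MPS1 that starts checkpoint signalling, fell by 1.79 (SE 0.25, adjusted p = 0.00106), but by 0.91 after normexp background correction. Mad2l1, whose protein captures CDC20, fell by 1.78 on its brightest probe (SE 0.21, adjusted p = 0.000572), by 1.80 on the next and by 1.36 on the dimmest. Bub3, which brings BUB1 and BUBR1 to the kinetochore, had levels of 4.98, 4.83, 4.82 and 4.68 with DMSO and of 4.23, 4.27, 4.38 and 4.11 with DOM. These groups did not overlap either, and the change of -0.58 had an adjusted p of 0.00337 (SE 0.10), but at 1.49-fold it fell just short of the 1.5-fold limit. It passed the limit when DOM replicate 2 (-0.59), DOM replicate 3 (-0.62) or DMSO replicate 4 (-0.63) was left out. The nearest gene inside the limit was Cdc25b at 2.40-fold.

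All 4 genes of the anaphase group were called lower, between -1.93 and -1.91 on the brightest probes. Cdc20, the activator of the anaphase-promoting complex, had levels of 5.69, 5.36, 5.30 and 5.43 with DMSO and of 3.93, 3.32, 3.73 and 3.09 with DOM, a decrease of 1.93 (3.80-fold, SE 0.19, adjusted p = 0.000285). Ube2c, the ubiquitin-conjugating enzyme of that complex, fell by 1.91 (SE 0.19, adjusted p = 0.000306). Espl1 encodes separase, which cuts the link between sister chromatids, and Pttg1 encodes securin, which inhibits separase. Pttg1 and Espl1 both fell by 1.93 (adjusted p = 0.000358 and 0.000496). The second probe of Pttg1 fell by 2.01 and had the lowest adjusted p of all probes of the 40 genes (0.000232).

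**Figure D2:**
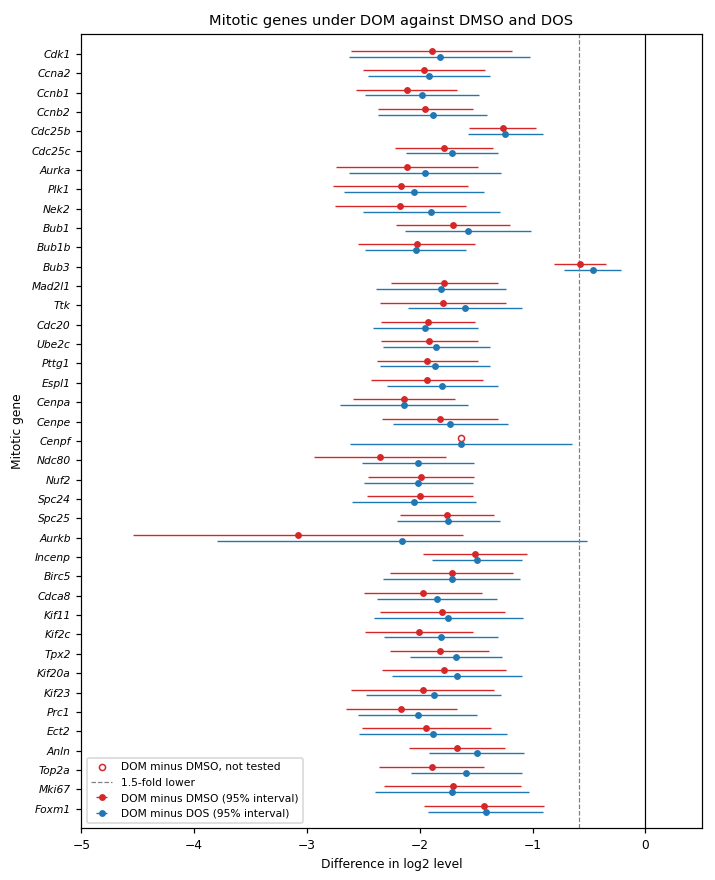
Difference in log2 level between DOM and DMSO (red) and between DOM and DOS (blue) for each of the 40 genes, with 95% confidence intervals from limma. The open circle marks Cenpf, which was not tested against DMSO, the dashed line marks a 1.5-fold decrease, and Bub3 is the gene nearest to that line.

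Of the 7 centromere and kinetochore genes 6 were tested and all 6 were called lower. Cenpa, the histone variant that marks the centromere, had levels of 4.69, 4.39, 4.46 and 4.39 with DMSO and of 2.56, 2.34, 2.75 and 1.74 with DOM. No arrays overlapped, and Cenpa fell by 2.14 (4.41-fold, SE 0.20, adjusted p = 0.00028). The 4 genes of the NDC80 complex, which binds microtubules at the outer kinetochore, fell together. Ndc80 fell by 2.35 (5.11-fold, SE 0.26, adjusted p = 0.000451), Nuf2 by 1.99 (SE 0.21, adjusted p = 0.000378), Spc24 by 2.00 (SE 0.21, adjusted p = 0.000362) and Spc25 by 1.76 (SE 0.19, adjusted p = 0.000385). A second, dimmer probe of Nuf2 cleared the background limit on all 4 DMSO arrays and on none of the DOM arrays. Cenpe, the kinetochore motor, fell by 1.82 (SE 0.23, adjusted p = 0.000709). Cenpf was too dim to be tested: it was well above background on 3 DMSO arrays and 1 DOM array, with levels of -3.22, -4.01, -3.61 and -3.69 with DMSO and of -4.31, -5.50, -4.81 and -6.45 with DOM.

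The 4 genes of the chromosomal passenger complex, which corrects faulty attachments and directs cytokinesis, were all called lower. Birc5 (survivin) had levels of 6.00, 5.75, 5.74 and 5.46 with DMSO and of 4.40, 3.87, 4.47 and 3.35 with DOM, a decrease of 1.72 (3.28-fold, SE 0.24, adjusted p = 0.00117). Its other 2 probes fell by 1.87 and 2.03. Cdca8 (borealin) fell by 1.97 (SE 0.23, adjusted p = 0.000571), and Incenp, the scaffold, by 1.51 (2.85-fold, SE 0.20, adjusted p = 0.00098). Aurkb, the kinase of the complex, had the largest change on these intensities and also the widest interval. Its levels were -1.17, -0.76, -0.23 and -0.82 with DMSO and -4.42, -3.34, -1.95 and -5.60 with DOM, where it was well above background on 3 of the 4 arrays. The DOM arrays spread over more than 3 log2 units. Aurkb fell by 3.08 (8.45-fold, SE 0.65, adjusted p = 0.00723), with a 95% interval of -4.55 to -1.61. The size depended on the processing: the change was -1.33 after normexp background correction, where it was no longer the largest, -2.49 without DOM replicate 4 and -3.70 without DOM replicate 3, and Aurkb was called in each. It was also low on DINCH replicate 1, at -2.30, below DOM replicate 3, and this array made Aurkb the exception among the 40.

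All 3 genes of spindle assembly and motors (median -1.82) and all 5 genes of the central spindle and cytokinesis (median -1.94) were called lower. Kif11 (Eg5, which pushes the spindle poles apart) fell by 1.80 (SE 0.25, adjusted p = 0.00102), Kif2c (MCAK, a microtubule depolymerase) by 2.01 (SE 0.21, adjusted p = 0.000399) and Tpx2, an activator of Aurora A, by 1.82 (SE 0.19, adjusted p = 0.000403). Among the genes of the central spindle and cytokinesis, Prc1, which bundles the microtubules of the midzone, had levels of 4.88, 4.39, 4.52 and 4.38 with DMSO and of 2.74, 2.25, 2.72 and 1.81 with DOM. It fell by 2.16 (4.48-fold, SE 0.22, adjusted p = 0.00033) with no overlap. The kinesin genes Kif23 and Kif20a fell by 1.97 (SE 0.28, adjusted p = 0.0012) and 1.78 (SE 0.24, adjusted p = 0.000999). Ect2, the exchange factor that activates RhoA at the cleavage furrow, fell by 1.94 (SE 0.25, adjusted p = 0.000841), and the furrow protein gene Anln by 1.67 (SE 0.19, adjusted p = 0.000479).

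The last 3 genes concern mitotic chromosomes and transcription. Top2a (topoisomerase II alpha) fell by 1.90 (3.72-fold, SE 0.21, adjusted p = 0.000445) and Mki67 (the Ki-67 proliferation antigen) by 1.71 (3.27-fold, SE 0.27, adjusted p = 0.00196). Foxm1, the transcription factor that drives many of the other genes, had levels of 2.39, 1.53, 1.91 and 1.76 with DMSO and of 0.73, 0.33, 0.86 and -0.06 with DOM. The groups did not overlap, and the decrease of 1.43 (2.70-fold, SE 0.24, adjusted p = 0.00231) was among the smaller ones of the set.

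The size of the DOM change differed between cultures. The median level of the 40 genes was 2.38, 1.94, 2.41 and 1.45 on DOM replicates 1 to 4, an SD of 0.45, compared with 4.17, 3.73, 3.83 and 3.70 on the DMSO arrays (SD 0.21). DOM replicate 4 was the lowest DOM array for 37 of 40 genes. DMSO replicate 1 was the highest DMSO array for 38 of 40, and the first replicate was likewise the highest array for 35 genes with MEHP, 33 with BDB, 33 with DOS and 18 with DINCH. With DOM the first replicate was the highest for 16 genes and the third for 24. All first replicates lay on slide 1, as did MEHP replicate 2 and DOM replicate 2, which were the highest for 0 genes. Leaving out each DOM or DMSO array in turn gave 38 or 39 called genes and a median change between -2.03 and -1.74. Within the 3 slides the median DOM change from DMSO was -2.08, -1.44 and -2.37, with 40 of 40 genes below 0 on each. DOM and DMSO arrays occupied the same rows of the slides, and the median change was -1.41 in row 2 and -2.38 in row 4. Whether slide or row had a part in the size of the decrease was not tested.

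**Figure D3:**
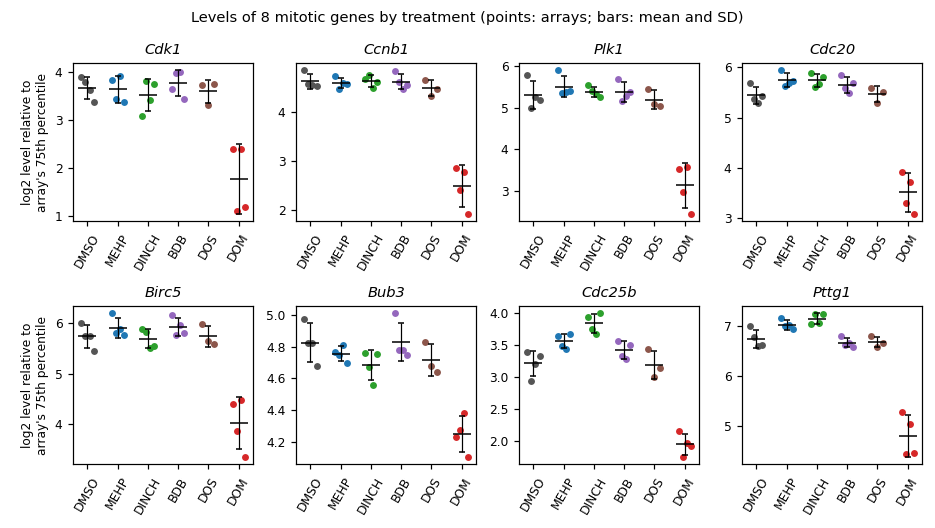
Levels of 8 mitotic genes on each array (points) by treatment, with the mean and SD of each group (black bars), on the log2 scale relative to the 75th percentile of the array. The DOM arrays lie below every other array in all 8 panels, by the smallest margin for Bub3, and the DINCH arrays lie above the DMSO arrays for Cdc25b and Pttg1.

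The other compounds allow the same genes to be compared at the same dose and time without the DMSO arrays. The same DOM arrays entered each of these comparisons and that with DMSO, so the comparisons are not independent of each other. DOM and DOS are both dioctyl esters of short dicarboxylic acids, and maleate has a carbon double bond where succinate has none. Of the 40 genes, all tested, 38 were called lower with DOM than with DOS (limma, compared with 8.06% of all genes tested). All 40 differences lay below 0, with a median of -1.82. Cdk1 had levels of 3.73, 3.31 and 3.75 with DOS, all above the highest DOM array at 2.40, and differed by -1.82 (95% interval -2.63 to -1.02, adjusted p = 0.011). Ccnb1 had levels of 4.65, 4.32 and 4.46 with DOS and differed by -1.98 (-2.49 to -1.47, adjusted p = 0.00206). Bub1b had the lowest adjusted p of this comparison, 0.0016, with a difference of -2.03 (-2.48 to -1.59). Not called were Bub3, with a difference of -0.47 (-0.72 to -0.21, adjusted p = 0.0234), and Aurkb, with a difference of -2.15 (-3.80 to -0.51, adjusted p = 0.0681). Cenpf was well above background on all 3 DOS arrays but on only 1 DOM array, so it was tested here through the DOS group. It was called with a difference of -1.64 (limma, adjusted p = 0.0326). The call was lost when any of the DOS replicates 1, 3 and 4 or DOM replicate 2 was left out (adjusted p = 0.0797 to 0.0968). It was also lost with no filter on dim probes (adjusted p = 0.177) and when detection on 1 array was enough (0.0822). After normexp background correction the difference was -0.40, short of the 1.5-fold limit.

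DOM was also called lower than MEHP for 39 of 40 genes (9.9% of all genes tested), than DINCH for 38 of 39 tested (11.6%) and than BDB for 39 of 40 (12.8%). All 40 differences lay below 0 in each, with medians of -2.07, -1.98 and -1.99. Bub3 was the gene not called in each of these comparisons, with differences of -0.51, -0.44 and -0.58. Cenpf was among the genes called against MEHP and BDB. It was well above background on all 4 arrays of each of these 2 groups but on only 1 DOM array, so it was tested through the group where it was brighter. The row of the slide cannot be told apart from the compound in these 3 comparisons, since the MEHP, DINCH and BDB arrays lay in rows 1 and 3 and the DOM arrays in rows 2 and 4. DOS shared its rows with DOM.

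With DINCH 2 of the 39 tested mitotic genes were called higher (limma), near the share of 4.25% over all genes tested. The number called lower was 0, compared with 4.02% of all genes. The median change over the 40 genes was 0.07, with 28 above 0 and 12 below. On slide 1 the direction was turned, with a median of -0.16 and 28 genes below 0, compared with 0.21 and 0.16 on slides 2 and 3. Since the DINCH arrays lay in rows 1 and 3 and the DMSO arrays in rows 2 and 4, row and compound cannot be told apart here, and the same holds for MEHP and BDB against DMSO. For DOS against DMSO, which share rows, the median was 0.10 in row 2 and -0.29 in row 4. At an unadjusted p below 0.05 in limma there were 9 of the 39 tested genes, compared with 34.4% of all genes tested. Cdc25b had levels of 3.94, 3.76, 3.68 and 4.00 with DINCH, all above the highest DMSO array at 3.39, and rose by 0.63 (1.55-fold, 95% interval 0.34 to 0.92, adjusted p = 0.018). Pttg1 was called on its dimmer probe, with levels of 1.79, 1.58, 1.51 and 1.63 compared with 1.11, 1.04, 1.00 and 0.93 with DMSO, a rise of 0.61 (adjusted p = 0.00834). Its brighter probe also lay above DMSO on all 4 DINCH arrays, with a smaller difference of 0.39 (adjusted p = 0.0616). The count of 2 was near the edge of the limits. Pttg1 was not called without DINCH replicate 1 (0.55, adjusted p = 0.0179) or DMSO replicate 4 (0.57, adjusted p = 0.0268). Cdc25b was not called without DMSO replicate 2 (0.54, adjusted p = 0.0404), DMSO replicate 3 (0.63, adjusted p = 0.057) or DINCH replicate 4 (0.58, adjusted p = 0.0508).

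The other named genes did not pass the test with DINCH. Their differences from DMSO were -0.15 for Cdk1 (95% interval -0.55 to 0.26), 0.01 for Ccnb1 (-0.24 to 0.26), 0.32 for Ccnb2 (0.06 to 0.58) and 0.15 for Ccna2 (-0.19 to 0.49). For the kinases they were 0.08 for Plk1 (-0.29 to 0.45), -0.08 for Aurka (-0.44 to 0.29) and -0.55 for Aurkb (-1.36 to 0.25). They were 0.30 for Cdc20 (0.04 to 0.56), -0.05 for Birc5 (-0.37 to 0.27), 0.07 for Top2a (-0.24 to 0.38), 0.14 for Mki67 (-0.24 to 0.53) and 0.09 for Foxm1 (-0.32 to 0.50). Cenpa lay above DMSO on all 4 DINCH arrays without passing the test, by 0.36 (0.10 to 0.63, adjusted p = 0.0802). For 32 of the 39 tested genes the 95% interval of the brightest probe lay within 1.5-fold in either direction.

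With MEHP, BDB and DOS none of the 40 genes passed the limits. All 40 were tested in each comparison, 0 were called by limma, and at an unadjusted p below 0.05 there were 4 with MEHP, 4 with BDB and 2 with DOS. Over all genes tested, 1.68% were called with MEHP, 0% with BDB and 0% with DOS. An unadjusted p below 0.05 was found for 21.6%, 19% and 7.73% of all genes tested. The median change of the 40 genes was 0.17 with MEHP, 0.11 with BDB and -0.07 with DOS. Leaving out single arrays moved it from 0.11 to 0.28 with MEHP, from 0.04 to 0.23 with BDB and from -0.16 to 0.03 with DOS. Of the 40 differences 36 were above 0 with MEHP and 34 with BDB, while 33 were below 0 with DOS. Over all genes tested, 52.9%, 57.2% and 52.2% were below 0 with MEHP, BDB and DOS. With MEHP the median on slide 1 was -0.08, compared with 0.25 and 0.22 on the other slides. The lowest adjusted p with MEHP belonged to Cdc25b, which lay above every DMSO array on all 4 MEHP arrays with a difference of 0.35 (95% interval 0.09 to 0.61, adjusted p = 0.171). The 95% interval lay within 1.5-fold in either direction for 29 of 40 genes with MEHP, 30 with BDB and 31 with DOS. The largest difference of the 3 compounds was that of Aurkb with DOS, -0.92 (-1.44 to -0.41, adjusted p = 0.416), where the 3 DOS arrays (-1.79, -1.88 and -1.34) lay below every DMSO array. All of these comparisons, and those of DOM and DINCH, share the 4 DMSO arrays.

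A longer list of other mitotic genes, also chosen with earlier results of these data known, showed how far the decrease with DOM extended. Of 93 such genes 92 were on the array and 91 were tested, and 71 were called lower and 0 higher (10.6% and 9.9% of all genes tested), with a median change of -1.39 over the 92. All 11 condensin and cohesion genes, all 5 further cytokinesis genes and 15 of 16 further motor and spindle genes were called lower. Examples are Iqgap3, a scaffold of the cell cortex (-2.34, SE 0.27, adjusted p = 0.000517), Ska1 of the outer kinetochore (-2.20, SE 0.28, adjusted p = 0.000709) and Aspm of the spindle poles (-2.10, SE 0.28, adjusted p = 0.000955). Among the condensin genes Ncaph2 was called only on a dimmer probe, its brightest changing by -0.35 (limma, SE 0.17, adjusted p = 0.146). Of 31 further kinetochore and centromere genes 25 were called lower, Mis18a among them only on a dimmer probe (brightest probe -0.56). The 6 that were not were Mis12 (-0.15), Cenpc1 (-0.46), Cenpo (-0.33), Cenpt (-0.02), Hjurp (-0.19) and Mad1l1 (-0.40). Among 18 regulators 15 were called lower, such as Plk4, the kinase of centriole duplication (-1.93), and Mybl2, the MYB protein of the MMB complex (-1.39). The 3 regulators not called were Fzr1 (-0.06), Lin37 (0.13) and Lin52 (0.03), the latter pair being subunits of the DREAM core. Lin9 (-1.15, SE 0.19, adjusted p = 0.00249) and Lin54 (-0.75, SE 0.14, adjusted p = 0.0037) of the same core were called lower.

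None of the core subunits of the anaphase-promoting complex was called with DOM. Of 11 subunit genes 10 were tested, 0 were called by limma and 3 had an unadjusted p below 0.05. Among all genes tested, 10.6% were called lower, 9.9% were called higher and 50.9% had an unadjusted p below 0.05. The difference between these shares was not tested. The median change over the 11 was -0.02, between -0.34 for Anapc1 (SE 0.11, adjusted p = 0.0484) and 0.12 for Cdc27 (SE 0.22, adjusted p = 0.707) among those tested. Ube2c and Cdc20, which work with this complex, fell by 1.91 and 1.93 on the same arrays. Hmmr, a spindle protein gene, was the 1 motor and spindle gene not called (0.32, SE 0.13, adjusted p = 0.0798).

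Genes of DNA replication, the other large group of cell cycle transcripts, fell with DOM by less. Of 41 such genes 40 were tested, 35 were called lower and 0 higher (again beside 10.6% and 9.9% of all genes), and the median change was -0.99, compared with -1.92 for the 40 mitotic genes, a difference that was not tested. The largest decrease was that of Tk1, the thymidine kinase of S phase (-2.05, SE 0.36, adjusted p = 0.00304), and Gins3 changed least (-0.08, SE 0.09, adjusted p = 0.52). With DINCH 3 of the 40 tested replication genes were called lower, compared with 4.02% of all genes tested, and 0 higher, with a median of -0.16.

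**Figure D4:**
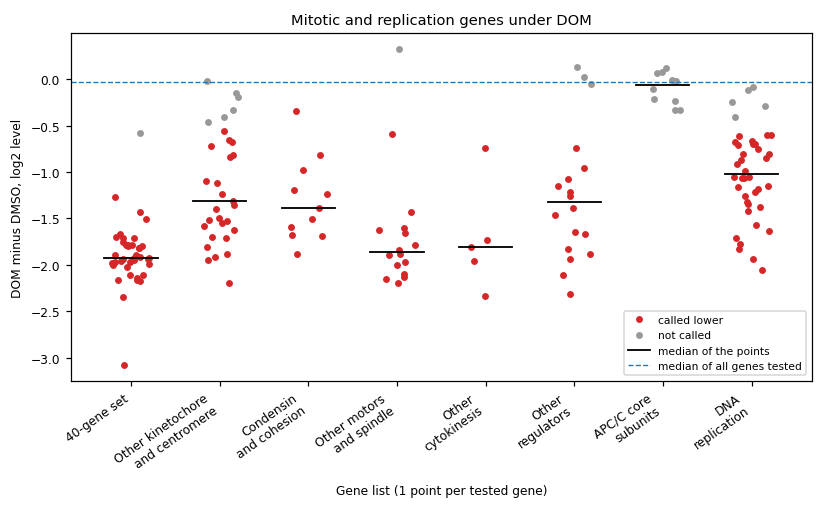
Difference in log2 level between DOM and DMSO for the tested genes of each list (1 point per gene, brightest probe), red where any probe of the gene was called lower and grey where none was, with the median of the points (black) and of all genes tested (dashed). The subunits of the anaphase-promoting complex (APC/C) lie near 0, and all but 2 of the tested genes of the 40-gene set lie between -2.35 (Ndc80) and -1.27 (Cdc25b), the exceptions being Aurkb (-3.08) and Bub3 (-0.58).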

How the data were processed

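The 23 arrays are 1-colour Agilent mouse arrays, each carrying Cy3-labelled RNA of 1 TM4 culture. Per the file headers and methods, the authors' Feature Extraction software gave each spot a background-subtracted, detrended intensity, and these deposited intensities were not scaled between arrays. A deposited matrix of log2 values, in which the authors had subtracted the 75th percentile of the array and then the median of the probe, served as an alternative.

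The log2 processed intensity was set relative to the 75th percentile of the non-control spots of its array. Spots marked as outliers (102 to 187 on an array) were removed, and replicate spots of a probe were averaged. Probes were named through RefSeq transcript accessions, which named 26582 of the 55681 non-control probes. Testing of a probe required that every array of 1 or both of the compared groups showed it well above background and not under the 20th percentile. Pairs of groups were compared with limma 3.58.1 in R 4.3.3, without covariates, with Benjamini-Hochberg adjustment over all tested probes. Calls needed 1 probe of the gene to pass both limits, adjusted p under 0.05 and over 1.5-fold. Values printed for a gene belong to the probe with the highest mean level over the 23 arrays. No array was saturated at a non-control spot, and the number of arrays limits the precision.

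The 40 genes, the other gene lists and the tests were chosen with earlier results of these data known. All 40 are accounted for, members called in a comparison are named there, and some are named for DOM and DINCH whatever their values (Cdk1, Ccnb1, Ccnb2, Ccna2, Plk1, Aurka, Aurkb, Birc5, Top2a, Mki67, Foxm1, Cdc20 and Cdc25b). The p-values measure the spread between the cultures of a group. The 4 DMSO arrays served all 5 compounds, and the same DOM arrays were also set against each other compound.

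The labels number the replicates in the same way in every group. Deviations from the group means of same-numbered arrays correlated above 0.1 in every pair for DINCH (0.169 to 0.496), BDB (0.255 to 0.434) and DOS (0.199 to 0.452) against DMSO. The same held for DOM against MEHP (0.188 to 0.606). Same-numbered arrays often lay on the same slide, as all first replicates did. Paired cultures and a shared slide therefore cannot be told apart by this check, which rests on the values alone. The printed values come from the fit without the replicate number, and a fit with this number as a block was an alternative. For DOM against DOS the lowest pair lay at the limit of 0.1.

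Alternatives tried were normexp background correction (offset of 50), quantile normalization, testing dim probes too, requiring detection on 1 array, fitting all 6 groups together, a block for slide or for replicate number, keeping outlier spots, the brightest probe of each gene only, a variance trend, the authors' table, and leaving out each array in turn. The steps were tested on simulated data. Promoter sequences came from RefSeq annotation on GRCm38.p6. Plots were made with matplotlib 3.10.9 (Python 3.11.15). The viability assays and the qPCR were not analysed here.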

Additional observations from a re-analysis of the deposited data

Results flagged for a closer look

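Among 200 sets of 4 arrays (40 genes in the 5 groups of 4), 15 held an array far from the other 3 by Dixon's criterion, which sets its gap to the nearest array against the range of the group. Chance alone marks about 1 in 20 groups, and the genes are not independent. In 14 of the 15 the array was the highest of its group. DMSO replicate 1 stood apart for Ccnb1 (gap of 0.831 of the range) and Ccnb2 (0.891). MEHP replicate 1 stood apart for Cdc25c (0.868), Plk1 (0.882), Nek2 (0.897), Prc1 (0.847), Mki67 (0.876) and Foxm1 (0.901). BDB replicate 1 stood apart for Bub3 (0.876), Cenpa (0.956), Spc24 (0.831) and Cdca8 (0.905). With DINCH the arrays were replicate 1 for Cenpa (0.913), replicate 3 for Espl1 (0.859) and, as the lowest of its group, replicate 4 for Spc24 (0.876). No DOM array was among them. All first replicates lay on slide 1, and what set them apart was not tested.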

How the results depend on the processing

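In all 9 comparisons the number of mitotic genes called stayed within 1.5 times the reported one under every alternative except for DINCH. The 2 genes called with DINCH became 1 with normexp background correction or with the brightest probe of each gene only, 0 with no filter on dim probes, and 1 to 2 when single arrays were left out. The number called with DOM against DMSO ran from 38 to 39 over all alternatives, against DOS from 32 (no filter on dim probes) to 39, against MEHP from 38 to 39, against DINCH it was 38 throughout and against BDB it ran from 38 to 40. It was 0 throughout for MEHP, BDB and DOS against DMSO. Of 741 values of single genes for DOM against DMSO, 738 kept their call, 3 (all Bub3) passed the limit in addition, and 0 changed direction. The median change with DOM against DMSO was -1.70 with normexp background correction, the value nearest to 0. The DINCH median, 0.07, ran from -0.02 to 0.21, and the DOS median, -0.07, from -0.16 to 0.03, so neither kept its sign throughout. With the replicate block, 38 genes were called for DOM against DMSO and 2 for DINCH against DMSO, and this block changed no count of calls. Same-numbered arrays did not all deviate together for MEHP (lowest correlation -0.14) and DOM (0.0384) against DMSO or for DOM against DINCH (-0.0325) and BDB (-0.0757). With normexp background correction the changes of Ttk (-0.91) and Aurkb (-1.33) with DOM against DMSO, and of Ttk (-0.78) and Cenpf (-0.40) against DOS, moved by more than 1.5-fold, and the cause was not tested.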
